A study of Mus musculus with 23 samples.

Results

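Luminal progenitor cells were set against stem cells of the mammary epithelium of virgin C57BL/6 female mice on 8 of the 23 Affymetrix arrays of the series. The 8 arrays are 4 of luminal progenitors and 4 of stem cells, 2 of each at 3 weeks and 2 of each at 9 weeks, and they were matched by the stage and the replicate number in their titles, giving 4 pairs. The series as a whole covers stem, luminal progenitor and mature luminal cells of virgins at 3 and 9 weeks, of pregnant mice at days 10 and 16 and of retired breeders, with mature luminal cells also at day 19. Each cell type was purified from digested mammary glands and its mRNA was isolated with a μMACS kit and labelled with biotin. All mice were C57BL/6 females, and the labels give no genetic change or drug in any group. The sorting gates and surface markers behind the names of the cell types are not given in the sources used here, and nothing tells whether 2 arrays of a group stem from different mice. A p-value here thus measures only how these samples vary, which may be technical variation. The number of arrays, 2 for each cell type and stage, limits the precision of every value.

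The mammary epithelium is built of an inner luminal layer, which makes milk, and an outer basal layer of contractile myoepithelial cells that lies on the basement membrane. Cells that can rebuild a gland on transplantation are found among the basal cells, and mammary stem cell fractions are usually enriched there. Luminal progenitors form colonies in culture, feed the luminal layer and are commonly recognised by Kit, Elf5 and Aldh1a3.

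Levels are the deposited log2 values, on which a difference of 1 is a 2-fold change, with the probe set of highest mean level standing for each gene. Per-array values are given in the order 3 weeks number 1, 3 weeks number 2, 9 weeks number 1 and 9 weeks number 2. Of 18193 genes, 15378 passed a filter on low values and were tested with limma, in a model that holds the replicate number as a block, with p-values adjusted by the Benjamini-Hochberg method over all 15378 genes. Differences are luminal progenitor minus stem, averaged with equal weight over 3 and 9 weeks unless a stage is named, ± the standard error. The medians of the 8 arrays ran between 4.67 and 5.34. The 3′ minus 5′ difference of the Gapdh control probe sets, a sign of RNA length, was 0.94, 2.03, 0.87 and 1.97 on the luminal progenitor arrays, against 1.45, 2.11, 1.59 and 1.30 on the stem arrays. Luminal progenitor arrays numbered 1 of the 2 stages correlated at 0.978 with each other over all probe sets, above the 0.876 to 0.937 found between arrays of the same group.

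The labels were first checked against markers. Krt5, a keratin of basal cells, measured 8.24, 6.24, 9.16 and 6.01 on luminal progenitor arrays, against 10.50, 10.27, 11.64 and 11.77 on stem arrays, and its groups did not overlap (-3.63 ± 0.62, adjusted p = 0.00208). Trp63, the transcription factor that maintains basal epithelium, measured 9.44, 8.92, 8.60 and 8.06 on luminal progenitor arrays, against 10.43, 10.61, 10.97 and 12.23 on stem arrays, and it did not pass the threshold (-2.31 ± 0.71, adjusted p = 0.0561). Aldh1a3, an aldehyde dehydrogenase of luminal progenitors, measured 12.13, 11.32, 12.32 and 12.11 on luminal progenitor arrays, against 10.65, 9.35, 10.97 and 8.76 on stem arrays. It was higher on every luminal progenitor array than on any stem array (2.04 ± 0.28, adjusted p = 0.000568). Kit, the receptor by which luminal progenitors are often sorted, measured 7.92, 7.91, 8.22 and 10.04 on luminal progenitor arrays, against 10.05, 9.17, 7.26 and 6.81 on stem arrays. The groups overlapped, with the 3-week stem arrays above the 3-week luminal progenitor arrays and the order turned at 9 weeks (0.20 ± 0.41, adjusted p = 0.828). Elf5, the transcription factor of alveolar progenitors, measured 7.52, 9.13, 8.0 and 10.65 on luminal progenitor arrays, against 7.31, 7.90, 8.37 and 6.24 on stem arrays and did not pass (1.37 ± 0.56, adjusted p = 0.151). Of the other progenitor markers checked, Lbp was lower in luminal progenitors, in 3 of 4 pairs (-1.5 ± 0.44, adjusted p = 0.0443), while Cd14 (0.78 ± 0.32, adjusted p = 0.158) and Itga2 (-0.37 ± 0.39, adjusted p = 0.629) did not pass. Of these markers Krt5 and Aldh1a3 passed and separated the groups in the direction of the labels. Trp63 separated them in that direction too, without overlap, but did not pass. Lbp passed against the direction of the labels, and Kit, Elf5, Cd14 and Itga2 did not pass. Among the other basal markers, given below, Krt14, Acta2 and Snai2 passed in the direction of the labels and Itga6 did not pass.

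Genes that define the endothelium of blood vessels also separated the stem arrays from the luminal progenitor arrays. All 16 of the 16 endothelial markers listed were lower in luminal progenitors, with a median difference of -3.80, and 8.79% of all genes tested were lower. Sox17, an endothelial transcription factor, measured 5.27, 6.86, 5.12 and 5.93 on luminal progenitor arrays, against 11.30, 11.97, 10.33 and 9.76 on stem arrays, without overlap (-5.05 ± 0.51, adjusted p = 0.000124). Erg, the ETS factor that maintains endothelial identity, measured 3.83, 4.66, 1.97 and 0.52 on luminal progenitor arrays, against 8.92, 9.58, 6.82 and 7.07 on stem arrays (-5.35 ± 0.53, adjusted p = 0.00012). Plvap, which forms the diaphragms of capillary fenestrae, measured 8.21, 8.73, 7.31 and 6.95 on luminal progenitor arrays, against 12.18, 12.78, 10.27 and 10.78 on stem arrays (-3.70 ± 0.30, adjusted p = 3.87e-05). The mean level of the 16 markers was 6.61, 6.81, 6.06 and 5.08 on the luminal progenitor arrays, against 10.80, 11.14, 9.46 and 8.94 on the stem arrays. The stem arrays of 3 weeks were thus higher for these markers than the stem arrays of 9 weeks, and every luminal progenitor array lay below every stem array. None of the 16 was at 0 or below the filter on all 8 arrays. Among pericyte markers, 4 of 10 were lower (Pdgfrb, Abcc9, Rgs5 and Mcam), and their mean level ran between 5.36 and 6.82 on luminal progenitor arrays and between 6.40 and 8.26 on stem arrays. The part of these cells in any other difference between the 2 populations was not tested, and in bulk samples fewer cells of a type cannot be told apart from less RNA per cell.

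Markers of other cells of the gland differed less. None of 12 fibroblast markers passed in limma (3 at an unadjusted p under 0.05, median difference -0.29), and their mean level ran between 6.10 and 8.79 on luminal progenitor arrays, against 6.91 and 7.86 on stem arrays. None of the 15 leukocyte markers kept passed (0 unadjusted, median -0.33), with mean levels between 3.71 and 6.01 on luminal progenitor arrays, against 4.53 and 6.38 on stem arrays. Itgam, a myeloid integrin, was below the filter on all 8 arrays. Of 6 adipocyte markers kept, Fabp4 (-3.09 ± 0.35, adjusted p = 0.000185) and Plin4 (-2.08 ± 0.42, adjusted p = 0.00612) were lower, while Adipoq, the defining adipokine, was below the filter on all 8 arrays; Fabp4 is also made by capillary endothelium. None of 4 red cell markers and none of 6 skeletal muscle markers passed in limma (0 unadjusted in each). Of 6 glial markers, Mbp (1.43 ± 0.30, adjusted p = 0.00698) and Erbb3 (1.89 ± 0.25, adjusted p = 0.000448) were higher in luminal progenitors. Erbb3 is also counted among the ERBB receptors below. The glial count of 2 was 1 without the replicate term and 0 with probe sets averaged.

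Over all genes tested, 1744 (11.3%) passed an adjusted p under 0.05, of which 393 were higher and 1351 lower in luminal progenitors. Of these 1744, 1622 had the same sign in all 4 pairs, as did 30.7% of all genes tested. In 1005 of them the 4 luminal progenitor arrays did not overlap the 4 stem arrays, where over all genes tested 2.84% lay wholly higher and 7.18% wholly lower. The median difference over all genes was -0.01. The share of the called genes that were higher depended on the scaling: it was 22.5% as deposited and 36.8% after quantile normalization. The count depended on the replicate term as well, falling to 707 (55 higher) without it, and all 707 were among the 1744. With single arrays left out it was 944 without stem array 2 of 3 weeks, 1027 and 1086 without luminal progenitor array 1 or 2 of 3 weeks, and 1141 without luminal progenitor array 2 of 9 weeks. The gene lists described here hold 719 genes, of which 659 were kept, and list counts are of the members kept.

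Of 35 tight junction, polarity and luminal keratin genes, 22 were higher and 1 (Krt23) was lower, with a median difference of 1.16, where 2.56% of all genes tested were higher. Without the replicate term 5 of the 22 were called. Mal2, a protein of transport to the apical membrane, measured 10.63, 10.44, 10.24 and 10.39 on luminal progenitor arrays, against 8.31, 6.62, 8.33 and 7.43 on stem arrays. The luminal progenitor arrays all lay above the stem arrays (2.75 ± 0.41, adjusted p = 0.000861). Cgn encodes cingulin, the cytoplasmic plaque protein of tight junctions, and it measured 11.67, 9.95, 11.67 and 8.89 on luminal progenitor arrays, against 9.62, 7.08, 10.01 and 6.94 on stem arrays. Its groups overlapped, with the arrays numbered 2 lower in both cell types, and the luminal progenitor array was higher in all 4 pairs (2.13 ± 0.29, adjusted p = 0.000509). The claudins, which seal tight junctions, were among the larger differences, with Cldn1 (2.51), Cldn4 (2.48), Cldn7 (1.97), Cldn8 (1.92) and Cldn3 (1.67) all called.

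The keratins and adhesion molecules that define the luminal layer lay near the top of the scale, where array values can be compressed and where the highest value of the series was 14.28. Krt8, the type II keratin of simple epithelia, measured 13.84, 13.78, 13.80 and 13.77 on luminal progenitor arrays, against 13.33, 12.69, 13.55 and 12.68 on stem arrays, and its groups did not overlap (0.74 ± 0.16, adjusted p = 0.00835). Its partner Krt18 was higher too (0.83 ± 0.18, adjusted p = 0.00833). Epcam, an adhesion molecule of luminal cells, measured 13.57, 12.68, 13.65 and 13.15 on luminal progenitor arrays, against 12.72, 10.77, 13.11 and 12.19 on stem arrays. Its groups overlapped (1.07 ± 0.22, adjusted p = 0.00636). A second Epcam probe set, above the filter on all 23 arrays, differed by 0.07 and was higher in 2 of 4 pairs. Cdh1, which encodes E-cadherin, was higher in all 4 pairs (0.81 ± 0.15, adjusted p = 0.00284). Krt8 and Epcam were thus high on the stem arrays as well. Occludin and tricellulin, which close bicellular and tricellular tight junctions, were higher (Ocln, 1.17; Marveld2, 1.70), while Tjp1 (0.08) and F11r (-0.21) did not pass. The count of higher junction genes fell to 7 without stem array 2 of 3 weeks, to 11 without luminal progenitor array 2 of 3 weeks, to 14 without stem array 2 or luminal progenitor array 1 of 9 weeks and to 4 without the 3-week pair numbered 2, and Krt8, Krt18, Epcam, Cdh1 and Cgn did not pass without the replicate term.

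Promoter windows of 4 of these junction and keratin genes are shown because they hold the E-box CACCTG, the motif bound by the Snail and Zeb repressors, in capitals as CACCTG or, on the other strand, CAGGTG. Each window runs from 250 bases before to 50 after the annotated start in RefSeq GRCm38.p6, 5′ to 3′ on the gene's strand. The Krt8 window is chr15:102004293-102004592 on the minus strand, with the match starting 111 bases before the start of transcription. The Krt18 window is chr15:102027966-102028265 on the plus strand, with the match 214 bases before. The Epcam window is chr17:87635729-87636028 on the plus strand, with matches 187 and 19 bases before. The Marveld2 window is chr13:100616922-100617221 on the minus strand, with the match 43 bases after the start.
Krt8: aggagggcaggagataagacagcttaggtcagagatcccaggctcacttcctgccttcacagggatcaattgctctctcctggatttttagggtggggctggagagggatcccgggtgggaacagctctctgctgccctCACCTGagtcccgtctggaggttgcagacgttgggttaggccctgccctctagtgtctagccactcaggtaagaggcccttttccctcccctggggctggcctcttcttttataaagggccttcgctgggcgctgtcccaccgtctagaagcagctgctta
Krt18: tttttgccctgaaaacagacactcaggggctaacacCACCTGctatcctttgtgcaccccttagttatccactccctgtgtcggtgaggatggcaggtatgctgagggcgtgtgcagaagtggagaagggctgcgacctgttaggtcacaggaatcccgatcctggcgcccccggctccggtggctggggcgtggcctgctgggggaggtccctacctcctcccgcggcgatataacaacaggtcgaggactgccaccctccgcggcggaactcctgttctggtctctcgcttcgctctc
Epcam: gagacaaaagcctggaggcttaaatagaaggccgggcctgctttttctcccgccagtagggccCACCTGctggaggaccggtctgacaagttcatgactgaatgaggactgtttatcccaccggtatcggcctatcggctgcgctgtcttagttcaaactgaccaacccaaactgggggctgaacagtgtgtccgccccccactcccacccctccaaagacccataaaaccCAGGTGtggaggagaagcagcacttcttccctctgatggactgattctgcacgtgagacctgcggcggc
Marveld2: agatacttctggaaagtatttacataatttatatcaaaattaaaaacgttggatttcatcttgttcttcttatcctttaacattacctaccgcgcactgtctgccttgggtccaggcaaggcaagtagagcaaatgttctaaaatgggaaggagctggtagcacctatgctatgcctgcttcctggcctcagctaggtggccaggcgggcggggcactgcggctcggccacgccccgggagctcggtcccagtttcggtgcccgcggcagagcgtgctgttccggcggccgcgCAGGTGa
Taking the first promoter listed for each gene, 19 of 26 junction and keratin genes with a window (73.1%) held this E-box on either strand, against 2359 of 12290 tested genes with a window (19.2%). The share was 37.3% (113 of 303) among all genes higher in luminal progenitors and 17.1% (170 of 996) among those lower. Members of the junction list that did not pass held it too, such as Tjp3, Lsr and Prom1, and the Cgn window held none. Of the contractile genes, 4 of 19 (21.1%) held the E-box, and 0 of 9 endothelial markers did. These windows were not matched for base composition, and a match is a run of letters, not a bound site.

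**Figure D1:**
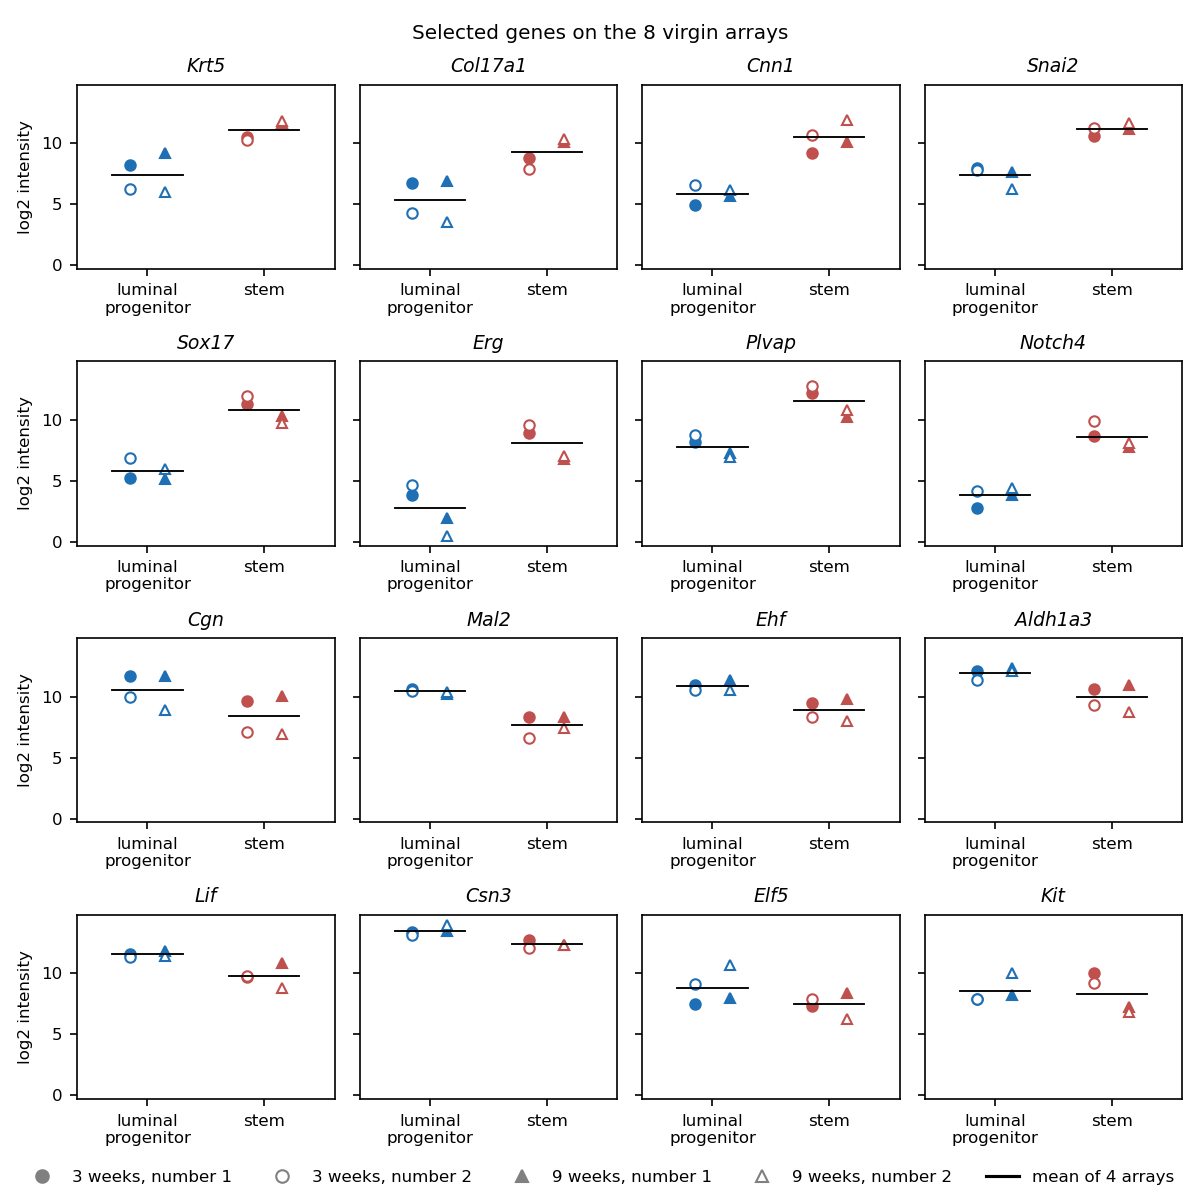
Log2 level of 16 named genes on each of the 8 arrays, luminal progenitors left of stem cells (circles for 3 weeks, triangles for 9 weeks, filled for number 1, open for number 2, bars for the mean of 4 arrays). Krt5, Col17a1, Cnn1, Snai2, Sox17, Erg, Plvap and Notch4 lie lower in luminal progenitors, Mal2 and Aldh1a3 lie higher without overlap, and Kit and Elf5 overlap.

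Transcription factors of the luminal layer were higher in 6 of 29 cases and lower in 1, with a median difference of 0.69. The shares over all genes tested were 2.56% higher and 8.79% lower. Ehf, an epithelial ETS factor, was higher by 1.93 ± 0.32, adjusted p = 0.00154, and Foxa1, which opens chromatin for oestrogen receptor, by 1.65 ± 0.31, adjusted p = 0.00354. Grhl1, of the grainyhead family that controls epithelial junction genes, measured 10.40, 10.13, 10.59 and 10.12 on luminal progenitor arrays, against 9.00, 8.20, 9.59 and 8.32 on stem arrays (1.53 ± 0.29, adjusted p = 0.00402). Myb (1.18), Tfap2a (0.73) and Sox9 (0.59) were the other higher genes, and the Notch target Hey1 was the lower one (-1.62). Gata3, which specifies luminal fate, did not pass (0.72 ± 0.26, adjusted p = 0.109). The 6 higher genes became 3 without the replicate term, stem array 2 of 3 weeks, or luminal progenitor array 2 of either stage.

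Of all genes tested, 2.56% were higher and 8.79% lower. Among 23 genes listed for luminal progenitors, 5 were higher and 2 lower, with a median of 0.74. Besides Aldh1a3, the higher genes were Lif (1.79 ± 0.32, adjusted p = 0.00286), a cytokine of the interleukin-6 family, the surface protein Plet1 (1.13 ± 0.15, adjusted p = 0.000419), the folate receptor Folr1 (1.95 ± 0.53, adjusted p = 0.0321) and the casein Csn3 (1.12 ± 0.19, adjusted p = 0.00206). Csn3 measured 13.41, 13.14, 13.48 and 13.92 on luminal progenitor arrays, against 12.72, 12.06, 12.32 and 12.36 on stem arrays, so both groups carried this milk protein transcript at high levels. The other lower gene beside Lbp was Aldh1a1 (-2.68), a relative of Aldh1a3 with the opposite direction. The 2 lower genes became 0 without the replicate term or on the arrays of either number alone, and 1 with a block by pair. The 5 higher genes became 10 without stem array 1 of 9 weeks and 2 on the arrays numbered 1 alone. Of 19 milk genes, 3 were higher (Csn3, Muc15 and Folr1) with a median of 0.69, a count that was 5 without luminal progenitor array 1 and 6 without stem array 1 of 9 weeks, and 1 without the replicate term. Csn2, which encodes β-casein, did not pass (-0.12 ± 1.13, adjusted p = 0.965). Of 14 hormone-response genes, Foxa1 and Wnt5a (1.29 ± 0.33, adjusted p = 0.0215) were higher, with a median of 1.03, and the oestrogen receptor Esr1 (1.01 ± 0.32, adjusted p = 0.0573) and the progesterone receptor Pgr (1.39 ± 0.59, adjusted p = 0.167) did not pass. Esr1 passed after quantile normalization (adjusted p = 0.0325), and a second Esr1 probe set, above the filter on 22 arrays, differed by 2.08, higher in all 4 pairs. The count of 2 higher hormone-response genes was 7 with a block by pair, 6 without stem array 1 of 9 weeks, 1 without stem array 2 of 3 weeks or any single luminal progenitor array, and 1 without the replicate term. Among 26 defence genes Cxcl5 and Wfdc2 were higher and Il6, Pglyrp1 and Lbp lower, with a median of 0.02. These small counts are to be read against the 2.56% of all genes tested that were higher and the 8.79% that were lower. The 2 higher ones became 0 without the replicate term, without an intensity trend, without a filter, or with values below the array median set to it, and 0 to 4 with 1 array left out (4 without stem array 1 of 9 weeks, 0 without stem array 2 of 3 weeks or either luminal progenitor array of 9 weeks).

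The 12 higher genes with the largest differences in the same direction in all 4 pairs came from outside the lists, apart from Mal2. Slc28a3, a concentrative nucleoside transporter, measured 7.13, 8.02, 7.64 and 11.10 on luminal progenitor arrays, against 4.77, 3.59, 4.87 and 7.36 on stem arrays. It was highest on luminal progenitor array 2 of 9 weeks, and it was higher in each of the 4 pairs (3.33 ± 0.59, adjusted p = 0.00276). The maltase-glucoamylase Mgam (3.00 ± 0.60, adjusted p = 0.00593) and the receptor tyrosine kinase Ltk (2.94 ± 0.64, adjusted p = 0.00974) came next. The others were Dhx32 (2.82), Scrn2 (2.73), Gca (2.65), AU018091 (2.57), Cnmd (2.57), Pls1 (2.54), Rgn (2.53) and Arfgef3 (2.53). A second Scrn2 probe set, above the filter on all 23 arrays, differed by 0.10 and was higher in 2 of 4 pairs. Pls1 encodes an actin bundler of microvilli, and Rgn a calcium-binding protein.

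Of 19 basal keratin, hemidesmosome and adhesion genes, 11 were lower and none higher, with a median of -1.54, where 8.79% of all genes tested were lower. Col17a1, the transmembrane collagen of hemidesmosomes, measured 6.75, 4.24, 6.93 and 3.51 on luminal progenitor arrays, against 8.76, 7.87, 10.08 and 10.35 on stem arrays. The groups did not overlap, and among luminal progenitors both arrays numbered 2 were the lowest (-3.91 ± 0.64, adjusted p = 0.00147). Krt14, the partner of Krt5, measured 10.73, 9.56, 11.08 and 9.24 on luminal progenitor arrays, against 12.13, 12.57, 12.76 and 13.41 on stem arrays (-2.57 ± 0.42, adjusted p = 0.00149). Krt17 (-2.66), the lymphatic and basal glycoprotein Pdpn (-2.39) and the laminin-332 chain Lama3 (-2.38) were lower too, although a second Lama3 probe set, above the filter on 4 arrays, differed by 1.02. The integrin chains used to sort basal cells did not separate the groups, with Itga6 at -0.01 ± 0.19, adjusted p = 0.981 and Itgb1 at -0.14 ± 0.32, adjusted p = 0.848, and other probe sets of both differed in sign. The hemidesmosome genes Itgb4 (-0.15), Dst (-0.26) and Plec (-0.28) did not pass either. Other Dst probe sets, above the filter on 22 or 23 arrays, differed by -0.49, -1.46 and -1.16. The count of 11 fell to 6 when all probe sets of a gene were averaged, to 7 without stem array 2 of 3 weeks and to 4 without the 3-week pair numbered 2, and in the arrays numbered 1 alone Krt5, Krt14 and Col17a1 did not pass.

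Smooth muscle genes, through which myoepithelial cells contract, showed the largest shift of the epithelial lists. Of 23 genes, 13 were lower and none higher, with a median of -2.64, where 8.79% of all genes tested were lower. Cnn1, which encodes calponin, measured 4.90, 6.56, 5.69 and 6.17 on luminal progenitor arrays, against 9.17, 10.70, 10.05 and 11.91 on stem arrays. All luminal progenitor arrays lay below all stem arrays (-4.63 ± 0.53, adjusted p = 0.000186). Acta2, smooth muscle actin, measured 10.50, 10.16, 10.30 and 9.38 on luminal progenitor arrays, against 12.65, 13.20, 12.82 and 13.77 on stem arrays, and it lay above the array median on the luminal progenitor arrays (-3.03 ± 0.43, adjusted p = 0.00068). The myosin heavy chain Myh11 (-4.50 ± 0.64, adjusted p = 0.000627), the myosin light chain kinase Mylk (-3.07 ± 0.40, adjusted p = 0.000404), the light chain Myl9 (-4.77) and the coactivator Myocd (-3.96) were lower as well. The oxytocin receptor Oxtr, which triggers milk ejection, differed by -2.64 ± 1.06, adjusted p = 0.143 and did not pass. Cytoskeletal genes shared with other cells, Tpm1 (0.01), Vcl (-0.02), Actn1 (-0.26) and Srf (0.44), did not pass. Pericytes and vascular smooth muscle use many of these contractile genes too. The CArG box, the motif of serum response factor, was searched only as an exact match to CCWWWWWWGG, where W is A or T. It was found in the first promoter window of 4 of 19 contractile genes (21.1%), against 1.42% of tested genes with a window. These 4 were Fhl2, Myl9, Srf and Vcl, of which 3 did not pass the test. The Acta2, Cnn1 and Mylk windows held no exact match, and runs that differ from the pattern by 1 base were not counted.

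Of 22 transcription factors listed for basal cells, 11 were lower, with a median of -1.78, where 8.79% of all genes tested were lower. The count was 6 without the replicate term, 4 on the arrays of either number alone and 5 without the 3-week pair numbered 2. Snai2, the Snail-family repressor also called Slug, measured 7.94, 7.79, 7.63 and 6.27 on luminal progenitor arrays, against 10.58, 11.26, 11.12 and 11.68 on stem arrays, without overlap (-3.75 ± 0.54, adjusted p = 0.00068). Id4, an inhibitor of basic helix-loop-helix factors found in basal cells, differed by -2.88 ± 0.39, adjusted p = 0.000487. Mef2c (-3.30 ± 0.42, adjusted p = 0.00034), Zeb1 (-2.73), Meis2 (-2.50), Irx4 (-3.20) and Tcf4 (-1.40) were lower, and Mef2c is also active in endothelium. Twist1 (-1.77), Zeb2 (-1.14) and Sox10 (-0.21) did not pass. Among 23 basal surface and secreted genes, 12 were lower and Ptn was higher (0.61), with a median of -1.62, where 2.56% of all genes tested were higher. The lower ones were 6 without the 9-week pair numbered 2. The higher count was 0 without the replicate term, with a block by pair, after quantile normalization or without an intensity trend. Procr, a receptor reported on mouse mammary stem cells and also made by endothelium, was lower (-2.16), whereas Lgr5 (-1.44) and Thy1 (-1.26) did not pass.

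Basement membrane genes followed the same direction, with 13 of 23 lower and a median of -1.67, where 8.79% of all genes tested were lower. The heparan sulphate proteoglycan Hspg2 measured 7.99, 8.18, 7.47 and 6.96 on luminal progenitor arrays, against 11.32, 10.44, 10.51 and 9.17 on stem arrays (-2.71 ± 0.35, adjusted p = 0.000358). The collagen IV chains Col4a1 (-2.67 ± 0.37, adjusted p = 0.000579) and Col4a2 (-3.12), which form the sheet's network, and the laminin chains Lama1 (-3.16) and Lamb1 (-2.69 ± 0.37, adjusted p = 0.000527) were lower. Lama5 (0.62), Lamb2 (-0.91) and Col4a5 (-0.01) did not pass. Of 27 other matrix genes, 15 were lower, with a median of -2.01, among them elastin (Eln, -3.21 ± 0.42, adjusted p = 0.000413), Col5a2 (-3.09 ± 0.47, adjusted p = 0.000981) and the proteoglycan Bgn (-2.99 ± 0.53, adjusted p = 0.00252). The fibrillar collagens Col1a1 (0.23), Col1a2 (0.36) and Col3a1 (-0.06), which mark fibroblasts, did not pass. Endothelial cells also make collagen IV and laminins, and their markers moved with these genes, by a median of -3.80. Without luminal progenitor array 1 of 3 weeks the counts were 8 basement membrane and 9 matrix genes, and without stem array 2 of 3 weeks or without the replicate term the matrix count was also 9. On the arrays numbered 1 alone both counts were 5, and on those numbered 2 alone they were 6 and 1. Without the 9-week pair numbered 2 both were 7, and without the 3-week pair numbered 2 they were 7 and 6.

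**Figure D2:**
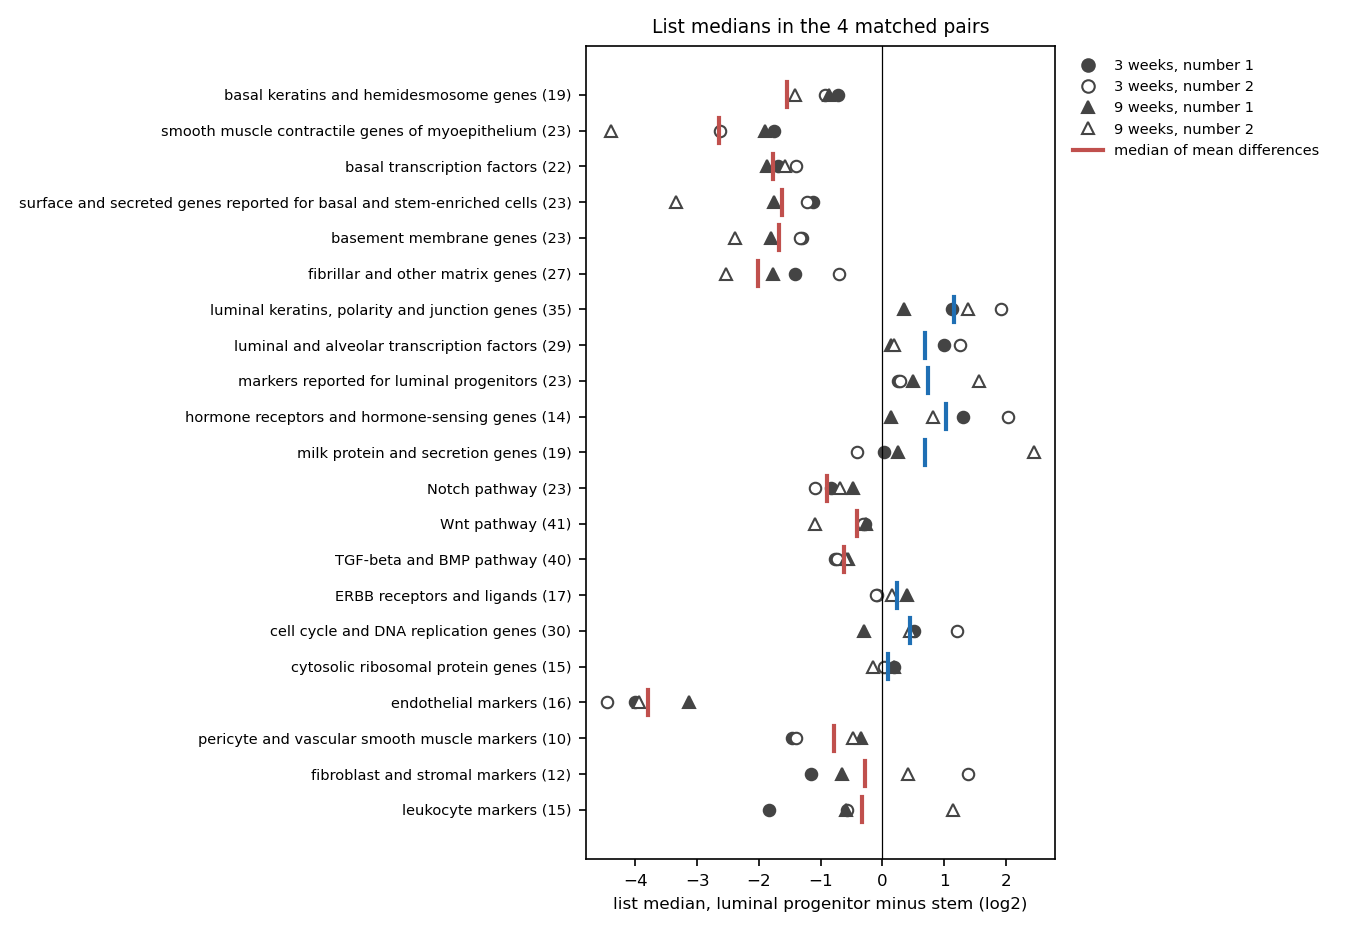
Median luminal progenitor minus stem difference (log2) of 21 gene lists in each of the 4 pairs, with a bar for the median of the members' mean differences (blue above 0, red below). The endothelial median lay between -3.14 and -4.46 in the 4 pairs and the contractile median between -1.75 and -4.39, while the junction median lay between 0.35 and 1.92.

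The lower genes with the largest differences were led by Col13a1, a transmembrane collagen, which measured 1.70, 2.13, 1.75 and 3.73 on luminal progenitor arrays, against 8.73, 9.30, 9.44 and 8.69 on stem arrays. It lay below the array median on all 4 luminal progenitor arrays (-6.71 ± 0.49, adjusted p = 2.33e-05). The others were Cytl1 (-6.04), the growth factor Igf2 (-5.69), Erg, Fam107a (-5.61), Parvb (-5.52), Fam167b (-5.41), Gkn3 (-5.23), Npr1 (-5.14), Gpihbp1 (-5.13), Sema3g (-5.07) and Sox17. Gpihbp1, which carries lipoprotein lipase across capillaries, and Erg and Sox17 are genes of endothelium, and Npr1 is the receptor of atrial natriuretic peptide in vessels. None of these 12 is a basal keratin or contractile gene.

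In the Notch pathway ligands on one cell activate receptors on its neighbour. Of 23 genes listed for it, 8 were lower and none higher, with a median of -0.89, where 8.79% of all genes tested were lower. The ligand Jag2 measured 5.08, 4.32, 5.65 and 4.59 on luminal progenitor arrays, against 7.11, 7.47, 7.77 and 7.94 on stem arrays (-2.66 ± 0.42, adjusted p = 0.00118). The ligands Dll4 (-4.10 ± 0.45, adjusted p = 0.000176), Dll1 (-3.01) and Jag1 (-1.39), the receptor Notch4 (-4.81 ± 0.40, adjusted p = 3.87e-05), the glycosyltransferases Mfng (-2.73 ± 0.44, adjusted p = 0.00136) and Lfng (-2.66) and the target Hey1 were the other lower genes. Notch4 and Dll4 are best known from endothelium. The receptors Notch1 (-0.28), Notch2 (0.48) and Notch3 (0.55) and the target Hes1 (0.48) did not pass. Of these 8 genes, Dll1, Jag2 and Lfng were also lower at both days 10 and 16 of pregnancy, with 1 luminal progenitor array at each day. The share lower at both days was 43.8% among all genes lower in virgin luminal progenitors and 29.0% among all genes tested. The part of endothelial cells in any of the 8 differences was not tested.

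Of 41 Wnt pathway genes, 9 were lower and 2 higher, with a median of -0.41, where 8.79% of all genes were lower and 2.56% higher. Without the replicate term the counts were 4 lower and 0 higher, and on the arrays numbered 1 alone 1 and 0. The ligand Wnt10a (-3.27 ± 0.54, adjusted p = 0.00164), the receptors Fzd4 (-2.29 ± 0.38, adjusted p = 0.00162) and Fzd8 (-1.46), the secreted inhibitors Dkk1 (-3.04 ± 0.53, adjusted p = 0.00235), Dkk3 (-3.04 ± 0.51, adjusted p = 0.0018) and Wif1 (-3.47) and the targets Axin2 (-2.15) and Apcdd1 (-2.91) were lower. Tcf7l1, a DNA-binding repressor of the pathway, was the ninth. Axin2, which reports canonical Wnt signalling in many tissues, measured 4.92, 4.49, 5.07 and 4.20 on luminal progenitor arrays, against 6.81, 5.98, 6.44 and 8.03 on stem arrays. The ligands Wnt7b (2.05) and Wnt5a were higher. The difference of Wnt10a was -0.76 and no longer called when values below the median of their array were set to it, and that of Dkk1 was -0.70 and not called when its probe sets were averaged.

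Of 40 genes of TGF-beta and BMP signalling, 15 were lower and 2 higher, with a median of -0.62. The shares over all genes tested were 8.79% lower and 2.56% higher. The 15 became 11 without the replicate term, 2 on the arrays numbered 2 alone and 9 without the pair numbered 2 of either stage. The ligands Bmp4 (-3.01 ± 0.39, adjusted p = 0.000358), Bmp6 (-3.37) and Bmp7 (-2.75), the decoy receptor Bambi (-2.60 ± 0.27, adjusted p = 0.000129), the latent TGF-beta binding protein Ltbp2 (-2.74 ± 0.37, adjusted p = 0.000502) and the targets Id1 (-3.34 ± 0.36, adjusted p = 0.000171), Id3 (-2.10), Smad6 (-3.28) and Smad7 (-1.43) were lower. Id1 measured 7.01, 5.29, 7.28 and 6.61 on luminal progenitor arrays, against 10.78, 9.55, 10.30 and 8.93 on stem arrays. Inhbb (1.05) and the receptor Bmpr1a (1.08) were higher, although 2 of its 5 other probe sets differed in the other direction. The count of 2 was 0 without the replicate term, without an intensity trend and with probe sets averaged, and 0 or 1 whichever of the 8 arrays was left out. The receptors Tgfbr1 (-0.48) and Tgfbr2 (0.39) did not pass. Of the 15 lower genes, 11 were also lower at both days 10 and 16, as were 43.8% of all called lower genes and 29.0% of all genes tested.

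ERBB ligands and receptors, which carry epidermal growth factor and neuregulin signals, were divided by member. The ligands Btc (2.40 ± 0.53, adjusted p = 0.0104) and Epgn (1.64 ± 0.34, adjusted p = 0.00732) and the receptor Erbb3 were higher. The ligands Ereg (-2.90 ± 0.57, adjusted p = 0.00515) and Nrg1 (-1.45) were lower, and the other 12 of 17 genes did not pass, including the receptors Egfr (-0.28), Erbb2 (1.37) and Erbb4 (-0.97). Btc, which encodes betacellulin, measured 10.27, 9.14, 9.13 and 8.19 on luminal progenitor arrays, against 8.38, 5.30, 8.11 and 5.34 on stem arrays. Ereg, which encodes epiregulin, measured 9.07, 8.27, 10.10 and 7.34 on luminal progenitor arrays, against 12.10, 10.75, 11.69 and 11.83 on stem arrays. In both genes the direction was the same in all 4 pairs, and the directions of these EGF-family ligands were opposite. Without the replicate term the counts were 1 higher and 0 lower. Over all genes tested, the shares were 2.56% higher and 8.79% lower.

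Of 39 axon guidance genes, which also act in vessels and epithelia, 12 were lower and Sema4d was higher (1.59), with a median of -0.69. The shares over all genes tested were 8.79% lower and 2.56% higher, for this and the next 3 lists. Robo4 (-4.70 ± 0.47, adjusted p = 0.00012), the roundabout receptor of endothelium, the plexins Plxna2 (-3.62 ± 0.42, adjusted p = 0.000202) and Plxnd1 (-3.48 ± 0.47, adjusted p = 0.000463), the neuropilins Nrp1 (-3.17) and Nrp2 (-2.90 ± 0.38, adjusted p = 0.000406) and the ligands Slit2 (-2.06) and Slit3 (-2.74) were among the lower genes, of which 7 were called without the replicate term. Of 17 FGF pathway genes, Fgfr4 (-2.17 ± 0.54, adjusted p = 0.0197), Fgf7 (-1.72 ± 0.42, adjusted p = 0.0171) and Spry4 (-1.56 ± 0.28, adjusted p = 0.00313) were lower, and Fgfr4 differed by -0.19 with no call when values below the median of their array were set to it. Of 18 Hippo genes, the coactivator Wwtr1 (-0.56 ± 0.17, adjusted p = 0.0488), the target Ccn2 (-1.40 ± 0.27, adjusted p = 0.00452) and Axl (-2.17 ± 0.64, adjusted p = 0.0473) were lower. Among 24 lipid genes 5 were lower, led by the fatty acid transporter Cd36 (-3.84 ± 0.39, adjusted p = 0.00012), which capillary endothelium and adipocytes also express. These small counts rested on single arrays: without stem array 2 of 3 weeks each of the FGF, Hippo and lipid counts was 1. Without the replicate term the FGF and lipid counts were 1 each and the Hippo count was 0. The Hippo count was 1 after quantile normalization, with low values set to the array median, or without an intensity trend. The endothelial marker mean, given above, differed between the 2 populations in the same direction as all of these lower genes, and its part in them was not tested.

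Several lists showed few or no calls. None of 30 cell division genes passed in limma (5 at an unadjusted p under 0.05), with a median of 0.45. Top2a, a topoisomerase of dividing cells, measured 10.55, 9.90, 9.63 and 8.03 on luminal progenitor arrays, against 9.10, 8.71, 9.39 and 6.90 on stem arrays (1.0 ± 0.41, adjusted p = 0.15). None of 15 ribosomal protein genes (0 unadjusted, median 0.09) and none of 22 oxidative phosphorylation genes (1 unadjusted, median 0.05) passed. None of 23 DNA methylation and chromatin genes passed (1 unadjusted), among them the DNA methyltransferases Dnmt1 (0.40 ± 0.31, adjusted p = 0.49), Dnmt3a (0.03 ± 0.26, adjusted p = 0.963) and Dnmt3b (-0.57 ± 0.27, adjusted p = 0.22). Other probe sets of Dnmt3a and Dnmt3b differed in sign. Of 17 cyclin and cell cycle inhibitor genes, 3 were lower: Ccnd2 (-3.56 ± 0.72, adjusted p = 0.006), Cdkn1c (-1.95 ± 0.41, adjusted p = 0.00848) and Cdkn1a (-0.93 ± 0.24, adjusted p = 0.022). This is to be read against the 8.79% of all genes that were lower, and the count was 1 without the replicate term or without stem array 2 of 3 weeks. Cdkn1b, which encodes p27, measured 11.84, 11.23, 11.55 and 11.02 on luminal progenitor arrays, against 11.88, 11.67, 11.45 and 11.55 on stem arrays and did not pass (-0.23 ± 0.17, adjusted p = 0.459). Of 24 immediate early genes, Klf6 was higher (0.50 ± 0.11, adjusted p = 0.00796) and Socs3 lower (-1.29 ± 0.30, adjusted p = 0.0144). That is 1 gene in each direction, where 2.56% of all genes tested were higher and 8.79% lower. The lower count was 7 with a block by pair, 4 without stem array 1 of 9 weeks, 2 without luminal progenitor array 2 of 3 weeks or stem array 2 of 9 weeks, and 0 without either array numbered 1 of 3 weeks, and neither gene passed without the replicate term.

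At 3 weeks alone, 1182 genes passed (7.69% of those tested), of which 255 were higher (1.66%) and 927 lower (6.03%). At 9 weeks alone, 429 passed (2.79%), of which 21 were higher (0.137%) and 408 lower (2.65%). The stages shared 305 genes, which is 25.8% of the 3-week genes and 71.1% of the 9-week genes, and all 305 had the same sign. The counts rest on single arrays: the 3-week count was 215 without stem array 2, 264 without luminal progenitor array 1, 393 without luminal progenitor array 2 and 749 without stem array 1 of that stage. The 9-week count was 2 without luminal progenitor array 2, 43 without stem array 2 and 198 without luminal progenitor array 1 of that stage. Without the replicate term the counts were 302 at 3 weeks and 2 at 9 weeks.

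The interaction between stage and cell type was tested directly, and 0 of 15378 genes passed in limma, with 744 at an unadjusted p under 0.05. Genes called at 3 weeks and not at 9 weeks were therefore not shown to differ between the stages. When values below the median of their array were set to it, 22 genes passed. Kit differed by -1.70 at 3 weeks (adjusted p = 0.102) and by 2.10 at 9 weeks (adjusted p = 0.0851), a difference between stages of -3.79 (adjusted p = 0.771). Krt15, a keratin of basal cells, differed by 0.06 at 3 weeks and by -3.34 at 9 weeks, with a difference between stages of 3.40 (adjusted p = 0.771). Cd247, the CD3 zeta chain of T cells, differed by -4.55 at 3 weeks and by 0.68 at 9 weeks (difference -5.23, adjusted p = 0.771), and over the 4 pairs its 3 other probe sets differed in the other direction from the one used. Cd55, a complement regulator used to divide luminal progenitors, differed by -1.88 at 3 weeks and by 1.41 at 9 weeks (difference -3.29, adjusted p = 0.771). The milk gene median was -0.27 at 3 weeks and 1.47 at 9 weeks, and the cell division median was 0.84 at 3 weeks and 0.04 at 9 weeks, neither of them tested. In the 4 pairs the milk medians were 0.03, -0.42, 0.25 and 2.45, so the 9-week value came mostly from the pair numbered 2. The cell division medians were 0.515, 1.2, -0.305 and 0.44.

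**Figure D3:**
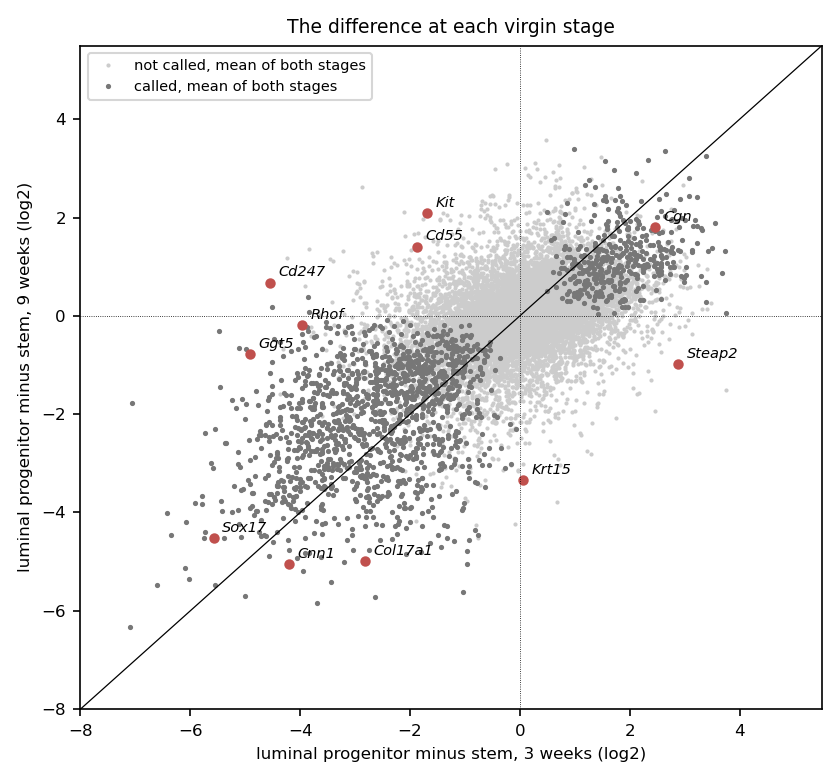
Luminal progenitor minus stem difference (log2) of each tested gene at 3 weeks (horizontal axis) and at 9 weeks (vertical axis), with named genes marked. Cnn1, Sox17 and Col17a1 lie below 0 at both stages and Cgn above 0 at both, while Kit and Cd55 lie below 0 at 3 weeks and above 0 at 9 weeks.

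The difference was then measured in pregnant mice, on arrays that share no sample with the virgin comparison: 1 luminal progenitor array each at days 10 and 16, against 2 stem arrays at day 10 and 1 at day 16. The endothelial markers marked the stem arrays of virgins but not those of pregnant mice. Their mean level was 6.91 on the luminal progenitor array of day 10, against 6.12 and 6.32 on the stem arrays of that day. At day 16 it was 7.70 on the luminal progenitor array, against 6.61 on the stem array. In retired breeders it was 6.85 on the luminal progenitor array, against 8.31 on the stem array, whose Gapdh 3′ minus 5′ difference was the highest of these stages at 3.77. Fibroblast markers, which did not separate the virgin groups, averaged 10.34 and 10.22 on the luminal progenitor arrays of days 10 and 16, against 6.18 and 7.73 on the stem arrays of day 10 and 7.21 on that of day 16. Leukocyte markers averaged 8.16 and 7.72 on the same luminal progenitor arrays, against 4.60 and 6.56 on the stem arrays of day 10 and 5.62 on that of day 16. The pregnant luminal progenitor arrays therefore stood apart from the virgin ones in markers of other cells, and the part of this in the comparison was not tested.

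**Figure D4:**
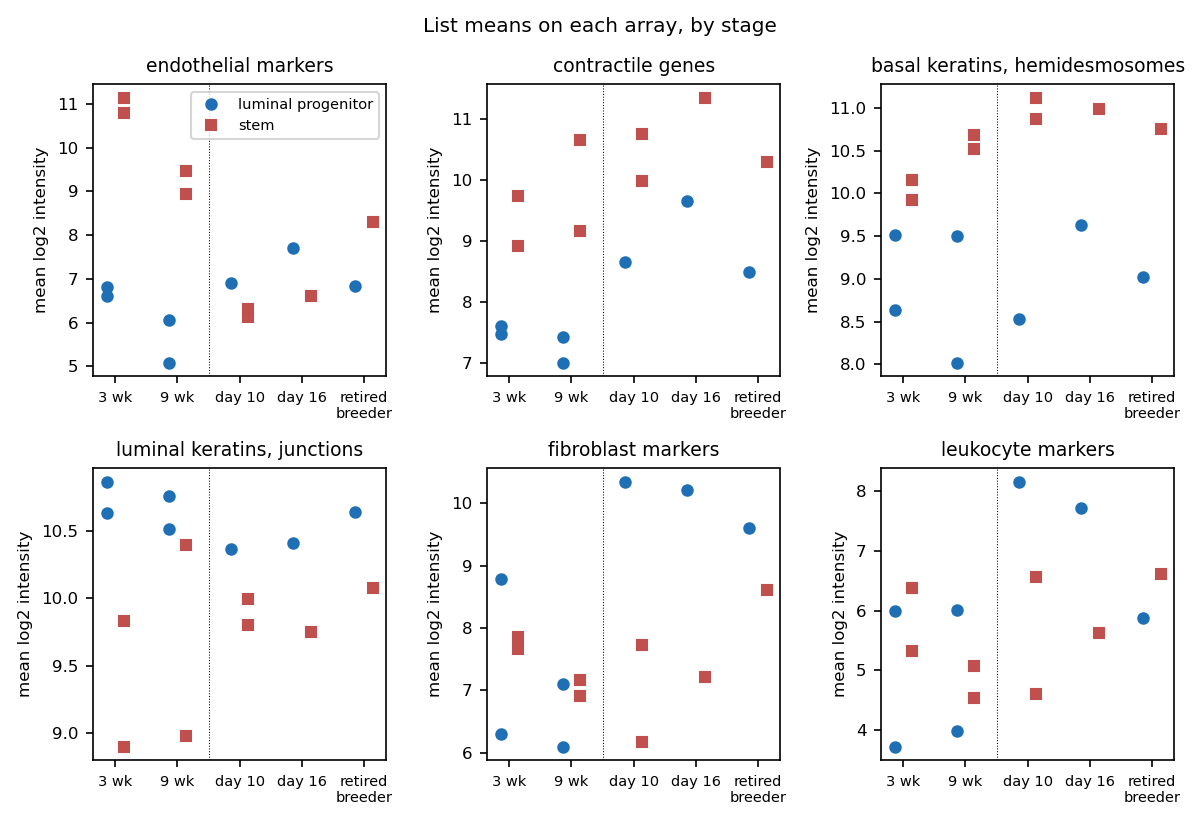
Mean log2 level of 6 gene lists on every luminal progenitor and stem array by stage, from virgins of 3 and 9 weeks through days 10 and 16 of pregnancy to retired breeders. The endothelial mean lies between 8.94 and 11.14 on virgin stem arrays and between 6.12 and 6.61 on those of days 10 and 16, and the fibroblast mean is 10.34 and 10.22 on the luminal progenitor arrays of days 10 and 16.

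Of the 393 genes higher in virgin luminal progenitors, 238 (60.6%) were higher at both days, and of the 1351 lower genes 592 (43.8%) were lower at both. Of all genes tested, 31.1% were higher and 29.0% lower at both days. By list, these were 12 of the 13 lower contractile genes, 10 of the 11 lower basal adhesion genes, 10 of the 13 lower basement membrane genes and 16 of the 22 higher junction genes. They were 5 of the 11 lower basal transcription factors, among them Snai2 and Id4, and 1 of the 16 endothelial markers (Egfl7). No gene passed for the pregnant difference alone in limma, with 2051 at an unadjusted p under 0.05. At day 10 Krt5 differed by -3.78, Cnn1 by -1.64, Snai2 by -3.12 and Cgn by 0.56, and at day 16 these were -1.70, -1.89, -0.64 and 1.17.

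The interaction between state and cell type, virgin minus pregnant, passed for 101 of 15378 genes (0.657%), of which 6 were higher (0.039%) and 95 lower (0.618%). This fit used all 23 arrays without a replicate term, and the single pregnant luminal progenitor arrays were assumed to vary like the other groups. Among the 16 endothelial markers, 9 were in the lower set. Col13a1 differed by -6.71 in virgins and by 2.44 in pregnancy (interaction -9.15, adjusted p = 0.00531). Fn1, which encodes fibronectin, differed by -2.25 in virgins and by 3.41 in pregnancy (interaction -5.66, adjusted p = 0.0121). The receptors Fgfr2 and Fgfr1 went the other way, with 1.02 in virgins and -2.60 in pregnancy for Fgfr2 (interaction 3.61, adjusted p = 0.0308) and 0.39 and -2.23 for Fgfr1 (interaction 2.62, adjusted p = 0.0308). The count rested on single arrays: it was 0 without the day 10 or the day 16 luminal progenitor array or the day 16 stem array, each of which leaves only the other day, and 12 without stem array 1 of day 10. With 1 virgin array left out, a setting chosen after seeing the data, it lay between 2 (without stem array 2 of 3 weeks) and 59 (without luminal progenitor array 2 of 3 weeks).

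Set against the other luminal population, mature luminal cells at 9 weeks (2 arrays each), luminal progenitors differed in 2 genes (0.013% of those tested), both lower, with 1050 at an unadjusted p under 0.05. Ces1d, a carboxylesterase, measured 1.84 and 4.82 on luminal progenitor arrays, against 7.06 and 9.70 on mature luminal arrays (-5.05 ± 0.68, adjusted p = 0.0419). Dcpp3 measured 7.87 and 10.20 on luminal progenitor arrays, against 11.48 and 12.83 on mature luminal arrays (-3.12 ± 0.40, adjusted p = 0.0419). Neither passed without the replicate term. Of genes that did not pass, Csn3 measured 13.48 and 13.92 on luminal progenitor arrays, against 11.82 and 12.42 on mature luminal arrays (1.58 ± 0.27, adjusted p = 0.128). Mature luminal array 1 carried Krt5 at 11.81, the level of the stem arrays of that stage, and array 2 at 7.35.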

How the data were processed

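The deposited log2 values of the 23 arrays were made by the authors from Affymetrix arrays hybridised with biotinylated cRNA, per the labels' protocols, and were used as they stand. The log2 scale was read from the values, which run from 0 to 14.28. The summarising software, background correction and scaling are not given in the sources used here. GEO's platform annotation gave 34945 of 45101 probe sets 1 gene symbol, and probe sets with several symbols (932), none (9160) or controls (64) named no gene. Each gene took its probe set of highest mean over all 23 arrays. Genes above the 40th percentile of the array on at least 2 arrays were kept (15378 of 18193). limma 3.58.1 in R 4.3.3 was fitted with an intensity trend to the 14 arrays of the 7 groups that have arrays numbered 1 and 2, with 1 mean for each group and the replicate number as a block, which left 6 residual degrees of freedom. Tests were moderated and two-sided. The virgin-against-pregnant interaction used all 23 arrays without the block. A gene was called at an adjusted p under 0.05.

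The pairing comes from the replicate numbers in the titles: deviations from the group means of same-numbered arrays correlated above 0.1 in 21 of 21 pairs of groups (0.303 to 0.682). The arrays compared, the gene lists and the tests were chosen with earlier results of these data known, and so the lists are described by counts and medians, without a test. The genes named are the 12 per direction with the largest difference among those called, of the same sign in all 4 pairs and above the array median in the higher cell type; up to 4 genes of each list with the smallest p; markers fixed by name; and up to 6 genes per direction with the smallest p in each further comparison. Other members of a list are given by their difference, chosen after their values were seen. Promoter windows came from a RefSeq GRCm38.p6 table, which held none for Cdh1. Alternatives tried were no block, a block by pair, each replicate number alone, each array left out, quantile normalization, low values set to the array median, no filter and a stricter one, the mean of all probe sets and no intensity trend.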

Additional observations from a re-analysis of the deposited data

Results flagged for a closer look

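In 12 genes the luminal progenitor minus stem difference was not the same in virgin and in pregnant mice by the interaction test in limma. These are the 6 genes with the smallest p in each direction of that comparison. Beside them stand the marker levels of other cells on the same arrays, high for fibroblast and leukocyte markers on the pregnant luminal progenitor arrays and high for endothelial markers on the virgin stem arrays, whose part in these differences was not tested. All values are log2, virgin minus pregnant.

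The 6 lower interactions were led by Col13a1, at -9.15 (-6.71 in virgins, 2.44 in pregnancy). Esm1, a proteoglycan secreted by endothelium, was at -6.52 (-4.72 and 1.80). Mndal, an interferon-inducible gene, was at -5.90 (-2.67 and 3.24), the homeobox factor Hhex at -5.69 (-3.19 and 2.50), the matrix protein Fn1 at -5.66 (-2.25 and 3.41) and the endothelial matrix gene Mmrn2 at -5.12 (-4.20 and 0.92). Their adjusted p was 0.00531 for Col13a1 and 0.0121 for the other 5.

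The 6 higher interactions were Fgfr2 at 3.61 (1.02 in virgins, -2.60 in pregnancy, adjusted p = 0.0308), the fibrinogen chain Fgg at 2.99 (1.13 and -1.86, adjusted p = 0.0404), Ccdc136 at 2.88 (0.73 and -2.15, adjusted p = 0.0349), C130021I20Rik at 2.82 (1.79 and -1.03, adjusted p = 0.0387), Fgfr1 at 2.62 (0.39 and -2.23, adjusted p = 0.0308) and the creatine transporter Slc6a8 at 1.98 (-0.18 and -2.15, adjusted p = 0.0475). In Slc6a8 both states had the same sign. None of the 12 kept its call when the luminal progenitor array of day 10 or that of day 16 was left out, which leaves 1 day of pregnancy.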

How the results depend on the processing

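None of the 127 called genes of the naming rule changed sign under any alternative, and of 199 called list members 1 did (Unc5c). These genes were called on the same arrays, so a kept sign is largely fixed in advance and is no independent support. The same limit holds for the signs kept on the arrays of each number, given below. The replicate block carried much of the significance. Without the replicate block, on all 23 or on the 8 compared arrays, the virgin mean gave 707 and 553 genes in place of 1744, 3 weeks gave 302 and 240 in place of 1182, 9 weeks gave 2 and 0 in place of 429, and the 2 genes against mature luminal cells became 0 on all 23. Arrays numbered 1 alone gave 366 genes and arrays numbered 2 alone 352, and of the 1744 genes 1743 and all 1744 kept their sign there. With 1 array left out in turn, the ranges were 944 to 2167 for the virgin mean, 215 to 1564 at 3 weeks, 2 to 574 at 9 weeks, 0 to 2 against mature luminal cells and 0 to 72 (pregnant arrays) and 2 to 59 (virgin arrays, chosen after seeing the data) for the virgin and pregnant interaction; the interaction of stage and cell type stayed at 0. Settings chosen after seeing the data left out whole pairs: without the 9-week pair numbered 2 the virgin mean gave 1086 and 9 weeks gave 2, and without the 3-week pair numbered 2 the virgin mean gave 635, 3 weeks 0 (1398 unadjusted), 9 weeks 187 and mature luminal cells 0. With values below the array median set to it, 22 genes passed for the stage interaction, 269 for the virgin and pregnant interaction and 0 against mature luminal cells. Against mature luminal cells, quantile normalization and no intensity trend gave 0, and no filter and a stricter filter gave 1; no intensity trend gave 242 at 9 weeks. A block by pair, quantile normalization and both filters kept the virgin mean within 1.5 times. Lists moved too: endothelial markers stayed at 16 lower when any 1 array was left out, contractile genes at 10 to 15, and higher junction genes ranged over 7 to 26. Probe signal sets no depth here, and 102 called genes lay below the array median in both cell types.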
